A study of Citrus maxima with 6 samples.

Results

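A BAHD acyltransferase gene and a pair of cytochrome P450 genes were followed in ripe pummelo pericarp, 3 of the 29406 genes of the deposited expression table. They were picked by locus ID, namely Cs3g10440, Cs1g22210 and Cs6g20050, after their values in MT and WT had been seen. Their MT and WT levels are therefore a description with no test. Protein names come from the Swiss-Prot matches that the study listed for its own changed genes, and none of these names was checked by an enzyme assay here. Cs3g10440 matches shikimate O-hydroxycinnamoyltransferase of tobacco, Cs1g22210 matches isoflavone 2'-hydroxylase (CYP81E1) of the liquorice species Glycyrrhiza echinata, and Cs6g20050 matches cytochrome P450 89A2 (CYP89A2) of Arabidopsis.

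MT1, MT2 and MT3 came from the orange-pericarp mutant, a spontaneous bud mutation of 'Guanxi' pummelo kept by grafting, and WT1, WT2 and WT3 came from 'Guanxi' pummelo itself. All 6 were untreated pericarp sample pools at the ripe stage, described as 3 biological replicates per genotype. As MT goes back to a single bud mutation, the libraries compare this line with its parent. The mutated gene is not named in the labels, so no transcript could serve as a check of the genotype.

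Shikimate O-hydroxycinnamoyltransferase belongs to the BAHD family, whose enzymes move acyl groups from coenzyme A esters to an acceptor. It joins a hydroxycinnamoyl group to shikimate, an early step towards the monolignols from which lignin is made. Cytochrome P450 enzymes are haem proteins that insert oxygen into their substrates with electrons from NADPH, and plants carry large families of them. In Glycyrrhiza echinata, CYP81E1 hydroxylates isoflavones, a branch of phenylpropanoid metabolism. CYP89A2 is a further member of the P450 superfamily, for which no substrate is given here.

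The study designed a quantitative PCR primer pair for each of these loci, shown because these oligos are the only sequences of the 3 genes used here. They are written 5′ to 3′ in lower case, with no base singled out in capitals. The qRT-PCR measurements made with them were not analysed here.
Cs3g10440 forward: acccggaaattagcgcagta
Cs3g10440 reverse: atggaggacttctataatttgattgttg
Cs1g22210 forward: gcaagaaggcgccatagaaa
Cs1g22210 reverse: gccgataattggcattgca
Cs6g20050 forward: tcagaaatcagcacccaaaatct
Cs6g20050 reverse: tgggcaaggaggtgaaatct
The primers were 19 to 28 bases long, and the reverse primer of Cs3g10440, at 32.1% G and C, was the longest of the 6.

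Expression was given as RPKM, the reads of a gene per kilobase of its gene model, scaled to the size of the library. Whole reads could be recovered from the steps between RPKM values for all 23454 genes with a read in any library, and the libraries were scaled to 9253681 to 11108186 reads. Of 16719 genes averaging 0.3 RPKM or more, limma called 6 at an adjusted p of 0.05, against 863 without MT3, 11 without MT2 and 0 without any one of the WT libraries. The study's own list of changed genes, from the count test DESeq at an adjusted p under 0.05, was much longer than these 6. The median of the 16719 genes was 0.15 higher in MT on the scale of log2(RPKM + 0.5), so each log2 difference below is that of MT minus WT less this median.

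Cs3g10440, the acyltransferase gene, was the most abundant of the 3 by RPKM. Its level was 10.8, 11.2 and 7.64 RPKM in MT1, MT2 and MT3, against 4.24, 3.67 and 2.92 RPKM in WT1, WT2 and WT3. Even the lowest MT library lay above the highest WT library. The mean was 9.88 ± 1.95 in MT and 3.61 ± 0.662 in WT (SD, n = 3 each), a ratio of 2.74. These values rested on 227, 208 and 141 reads in the MT libraries, against 74, 70 and 57 reads in the WT libraries. With such numbers the counting error was small, with a lower 95% limit of 6.43 RPKM in MT3 and an upper limit of 5.33 RPKM in WT1. These limits do not cover spread between fruits. As the gene was chosen from this contrast, they are no test of it. The log2 difference was 1.18 (SE 0.22). On the study's scale of low (up to 3 RPKM), medium (up to 15 RPKM) and high expression, the gene was medium in all MT libraries and in WT1 and WT2, and low in WT3.

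Cs1g22210, the CYP81E1 match, was scarce in MT and nearly absent from WT. MT1, MT2 and MT3 had 1.31, 0.941 and 0.594 RPKM, against 0.0628, 0.0574 and 0 RPKM in WT1, WT2 and WT3. In reads this was 25, 16 and 10 in the MT libraries, against 1, 1 and 0 in the WT libraries. So all that was seen of this gene in WT was 2 reads. The 0 reads of WT3 allow an RPKM of up to 0.168, the value of 3 reads there, and this limit covers counting error only. The mean was 0.947 ± 0.357 RPKM in MT and 0.0401 ± 0.0348 RPKM in WT (SD, n = 3 each). The 51 MT reads and 2 WT reads gave a ratio of 24.6 after scaling for depth, and its exact 95% limits (Clopper-Pearson) were 6.48 and 209. They come from reads pooled over the libraries of a genotype and leave out the spread between libraries.

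Cs6g20050, the CYP89A2 match, was the rarest, with 35 reads in MT and 1 read in WT. Levels were 0.651, 1.39 and 0.443 RPKM in MT1, MT2 and MT3, against 0, 0.0714 and 0 RPKM in WT1, WT2 and WT3. The MT libraries held 10, 19 and 6 reads, and the WT libraries 0, 1 and 0. Counts of 0 allow up to 0.234 RPKM in WT1 and 0.210 RPKM in WT3, the value of 3 reads. Its mean RPKM was 0.828 ± 0.498 in MT and 0.0238 ± 0.0412 in WT (SD, n = 3 each). The depth-scaled ratio of reads was 33.8 with exact 95% limits of 5.68 and 1373, so neither the size of this ratio nor its order against that of Cs1g22210 is resolved. Here too the limits leave out the spread between libraries. Both P450 genes were in the low class in all 6 libraries.

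**Figure D1:**
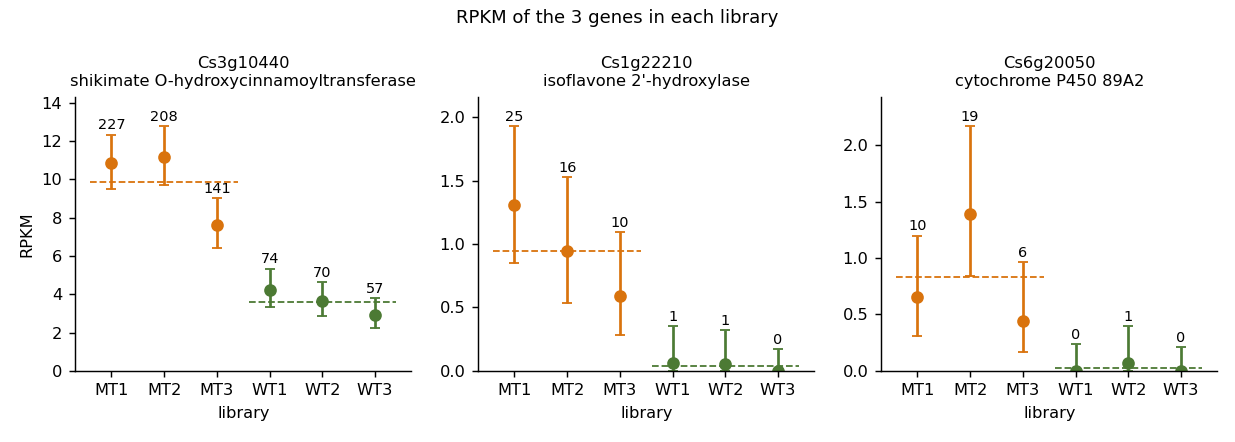
RPKM of Cs3g10440, Cs1g22210 and Cs6g20050 in the 3 MT and the 3 WT libraries. Points are RPKM values, bars the exact Poisson 95% interval of counting error (at 0 reads, up to the value of 3 reads), dashed lines the mean of a genotype and the numbers above the bars the reads. The MT points lie above the WT points in each panel, and the P450 panels hold 0 or 1 read in each WT library.

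All 3 genes passed the minimum mean RPKM, the P450 genes only through their MT values, and in all 3 the MT libraries lay wholly above the WT libraries. Over all genes tested, 23.3% did so and 5.36% lay wholly below. With the libraries rescaled by their median ratio, these shares were 13.3% and 13.0%. The contrast chose the 3 genes, so nothing is read from their count. The log2 difference was 1.24 (SE 0.26) for Cs1g22210 and 1.13 (SE 0.31) for Cs6g20050, close to the 1.18 of Cs3g10440. For the P450 genes this value is largely set by the 0.5 added to RPKM, since their WT RPKM is near 0. It was 2.72 for Cs1g22210 and 2.66 for Cs6g20050 with 0.1 added, and 0.75 and 0.67 with 1 added. In limma voom on the recovered reads it was 3.79 for Cs1g22210 and 3.71 for Cs6g20050, whereas Cs3g10440 stayed within 1.06 to 1.34 under the alternatives run.

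**Figure D2:**
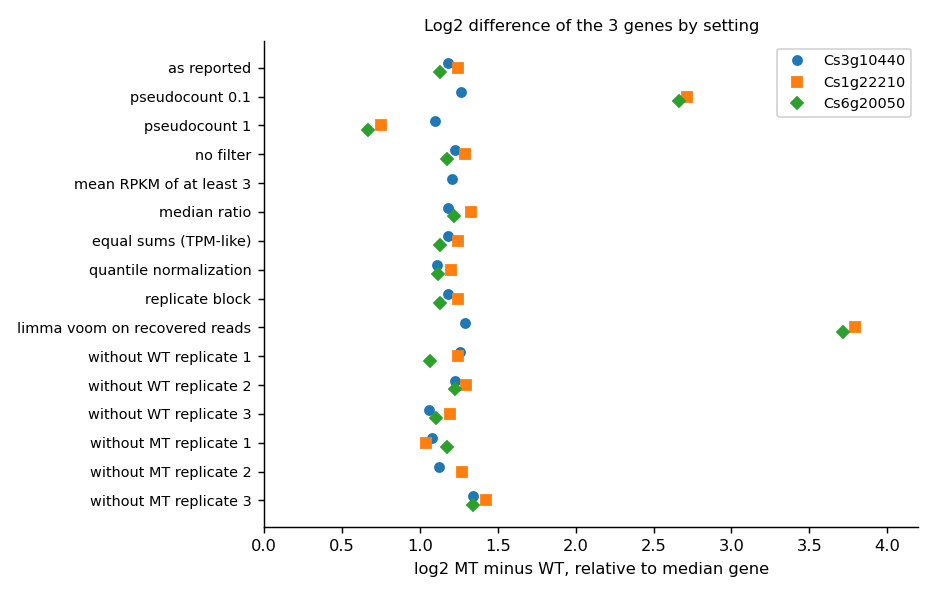
Log2 difference of Cs3g10440, Cs1g22210 and Cs6g20050, MT minus WT less the median gene, in the test as reported and under the alternatives shown. The replicate block leaves this difference unchanged by construction. Each point is 1 gene under 1 setting. Cs3g10440 lies between 1.06 and 1.34 throughout, while the P450 genes move with the pseudocount and reach 3.79 and 3.71 in limma voom. Where a P450 gene has no point, it fell under the minimum mean RPKM.

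Levels differed within MT as well. MT3 had the lowest RPKM of the 3 MT libraries for each gene. The highest MT library exceeded the lowest by 1.46 times for Cs3g10440 (MT2 over MT3), with exact 95% limits of 1.17 and 1.82 from the reads. The ratio was 2.20 for Cs1g22210 (MT1 over MT3, limits 1.02 and 5.14) and 3.14 for Cs6g20050 (MT2 over MT3, limits 1.20 and 9.60). These limits cover counting error for pairs of libraries picked as the extremes. In place among all 29406 genes, Cs3g10440 had 8021 genes above it in MT1 and 12040 in WT3, the extremes over the 6 libraries.

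Other genes on the study's list of changed genes share a best match with each of the 3. They carried most of the RPKM summed over the listed matches, and matches off the list were not counted. The list of the study that names them was itself drawn up from these libraries, so their values too are given as a description with no test. For shikimate O-hydroxycinnamoyltransferase, the further listed matches were orange1.1t02793 and Cs1g05810, and both were lower in MT. MT1, MT2 and MT3 had 110, 50.5 and 94.4 RPKM of orange1.1t02793, against 158, 139 and 192 RPKM in WT1, WT2 and WT3. Of Cs1g05810 they had 9.41, 1.05 and 26.0 RPKM, against 41.7, 36.2 and 38.5 RPKM in WT1, WT2 and WT3. MT2, the library with the highest RPKM of Cs3g10440, had the lowest of both. In neither gene did the genotypes overlap, and the log2 differences were -1.15 (SE 0.29) for orange1.1t02793 and -2.55 (SE 0.90) for Cs1g05810. Without MT2, that of Cs1g05810 was -1.39.

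Summed over the 3 listed matches, the RPKM was 107 ± 38.3 in MT and 205 ± 27.2 in WT (SD, n = 3 each). Cs3g10440 took 8.35% of this sum in MT1, 17.8% in MT2 and 5.97% in MT3, against 2.08% in WT1, 2.05% in WT2 and 1.25% in WT3. The higher level of this gene in MT thus stood beside a lower summed level of the listed matches. Cs3g10440 made up 17.8% of that sum at most, and matches off the list were not counted.

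The CYP81E1 match had a single further gene on that list, Cs1g22200, whose locus number directly precedes that of Cs1g22210. The mean of Cs1g22210 was higher in MT and that of its neighbour lower. MT1, MT2 and MT3 had 7.12, 4.13 and 20.5 RPKM of Cs1g22200, against 27.8, 20.2 and 30.4 RPKM in WT1, WT2 and WT3. MT3 lay just above WT2, so the genotypes overlapped without rescaling. With RPKM divided by the median ratio factors (1.07 for MT3, 0.908 for WT2), MT lay wholly below WT. The mean RPKM of Cs1g22200 without rescaling was 10.6 ± 8.71 in MT and 26.1 ± 5.28 in WT (SD, n = 3 each). Cs1g22210 made up 15.5%, 18.6% and 2.82% of the summed RPKM of this pair in MT1, MT2 and MT3, against 0.226%, 0.283% and 0% in WT1, WT2 and WT3. The authors kept uniquely mapped reads alone, so reads shared by such related genes were lost from both.

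The listed CYP89A2 matches were all higher in MT. Cs7g15470 and Cs7g15480, whose locus numbers are consecutive, were higher in every MT library than in any WT library, as was Cs6g20050. MT1, MT2 and MT3 had 23.9, 39.0 and 19.3 RPKM of Cs7g15470, against 6.42, 6.38 and 5.11 RPKM in WT1, WT2 and WT3. Of Cs7g15480 they had 11.6, 25.5 and 12.3 RPKM, against 1.89, 2.16 and 1.45 RPKM in WT1, WT2 and WT3. MT2 was the highest library for all 3 matches. The ratio of the mean RPKM in MT to that in WT was 4.59 for Cs7g15470 and 8.99 for Cs7g15480, from 572 and 112 reads in WT. Cs6g20050 held 1.39% to 2.11% of the summed RPKM of the listed matches in MT libraries and 0% to 0.829% in WT libraries.

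**Figure D3:**
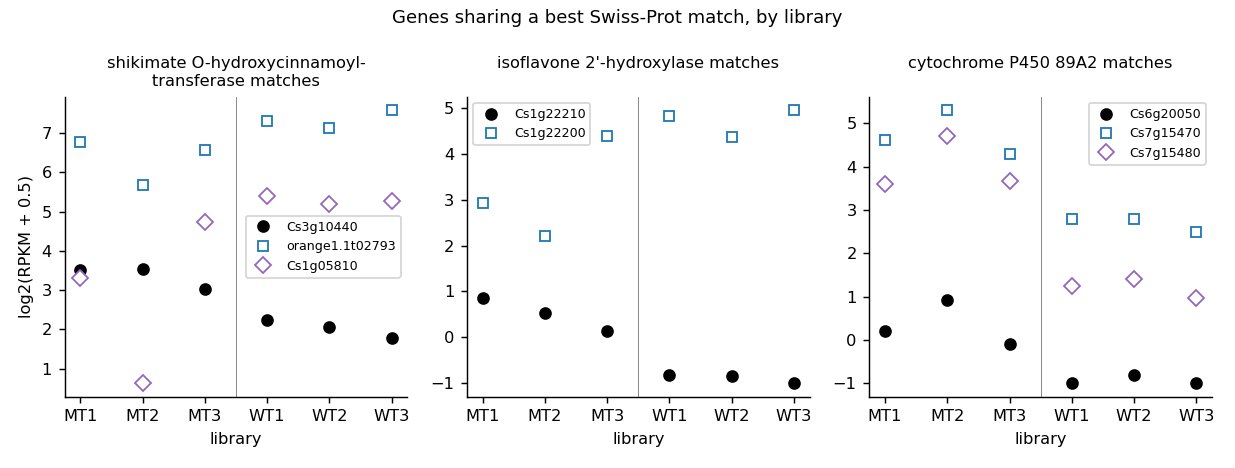
log2(RPKM + 0.5) in 3 MT and 3 WT libraries for listed genes sharing a best Swiss-Prot match with Cs3g10440, Cs1g22210 or Cs6g20050 (filled circles). The axis is logarithmic. The further shikimate O-hydroxycinnamoyltransferase matches are lower in MT and the further CYP89A2 matches higher. In these values without rescaling, Cs1g22200 overlaps between the genotypes through MT3 and WT2.

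Beyond shared matches, the list of the study names 4 more genes of the BAHD family. Cs9g17750 and Cs9g17800, matches to DCR, an acyltransferase needed for cutin in Arabidopsis, averaged 595 ± 452 and 575 ± 443 RPKM in MT, against 1488 ± 224 and 1376 ± 191 RPKM in WT (SD, n = 3 each). Their MT libraries differed widely, with 711, 97.4 and 978 RPKM of Cs9g17750 in MT1, MT2 and MT3. Cs7g25720, a match to phenolic glucoside malonyltransferase 1, had 42.9 ± 49.7 RPKM in MT and 163 ± 56.6 RPKM in WT (SD, n = 3 each). Its genotypes overlapped through MT3 (100 RPKM) and WT2 (99.3 RPKM). With median ratio rescaling, MT lay wholly below WT for this gene. Only Cs5g14960, a match to salutaridinol 7-O-acetyltransferase of opium poppy, resembled Cs3g10440 in direction, with 1.44 ± 0.611 RPKM in MT and 0.285 ± 0.0487 RPKM in WT (SD, n = 3 each). Of the 6 listed BAHD genes other than Cs3g10440, 1 lay wholly above WT in MT, 4 lay wholly below and Cs7g25720 overlapped. These counts are without rescaling, beside 23.3% above and 5.36% below of all genes tested. After median ratio rescaling those shares of all genes tested were 13.3% and 13.0%. Nothing is read from this count, as the list was picked for change in these libraries. Their median log2 difference was -1.97, beside 0 by construction for all genes tested, and -0.91 without MT2. The difference of Cs9g17800 was -1.94 with all libraries and -0.89 without MT2, when that of Cs9g17750 was -0.94.

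The list holds 5 further P450 genes. Cs1g24710, a match to the brassinosteroid enzyme CYP90C1 of Arabidopsis, had 1.94 ± 0.914 RPKM in MT and 0.164 ± 0.0640 RPKM in WT (SD, n = 3 each), with 9 reads in WT. The RPKM of orange1.1t03997, a match to geraniol 8-hydroxylase (CYP76B6), was 15.6 ± 5.67 in MT and 4.39 ± 1.13 in WT (SD, n = 3 each). Lower in MT were Cs6g19380, a match to the abscisic acid 8'-hydroxylase CYP707A1, Cs3g23010 (CYP81D1) and Cs5g13980 (CYP71A1). Cs6g19380 had 72.8 ± 3.83 RPKM in MT and 155 ± 19.6 RPKM in WT (SD, n = 3 each). Of the 8 listed P450 genes other than Cs1g22210 and Cs6g20050, 4 lay wholly above WT in MT, 3 lay wholly below and Cs1g22200 overlapped. These counts are without rescaling, beside the same 23.3% and 5.36% of all genes tested. After median ratio rescaling those shares were 13.3% and 13.0%, and Cs1g22200 lay wholly below WT in MT. Again nothing is read from the count.

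Genes beside the 3 loci were examined next, since locus number does not depend on expression. The 5 loci before and the 5 after each gene gave 30 neighbours, of which 9 had no read in any library and 16 passed the minimum mean RPKM. MT lay wholly above WT for 2 of them and wholly below for 0, beside 23.3% and 5.36% of all genes tested. With median ratio rescaling it lay wholly above for 2 and wholly below for 2, beside 13.3% and 13.0%. The neighbours without overlap numbered 7 of 16 without MT3, beside 46.0% of all genes tested, and 8 of 16 without WT2, beside 41.4%. Limma called 0 of the 16 at an adjusted p of 0.05, beside 0.0359% of all genes tested, and limma voom also called 0. An unadjusted p under 0.05 was found for 3 of the 16, among them Cs1g22200, beside 21.8% of all genes tested. Around Cs6g20050, 5 of the 10 neighbours had no read in any library, but Cs6g20030 was expressed, with 38.7, 67.9 and 26.8 RPKM in MT1, MT2 and MT3, against 5.55, 16.2 and 5.16 RPKM in WT1, WT2 and WT3. Its log2 difference was 2.19 (SE 0.49, adjusted p = 0.0902 from limma). Near Cs3g10440, Cs3g10410 had 280, 506 and 221 RPKM in MT1, MT2 and MT3, against 137, 101 and 107 RPKM in WT1, WT2 and WT3, a log2 difference of 1.31 (SE 0.31, adjusted p = 0.0927 from limma). Neither of these neighbours has a name in the sources used here. The median log2 difference of the 16 neighbours was -0.17.

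**Figure D4:**
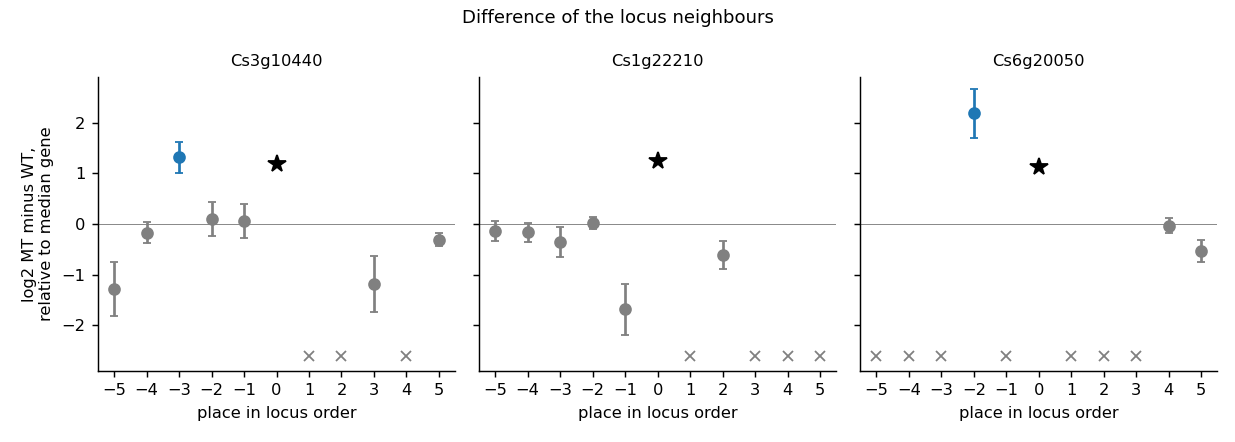
Log2 difference, MT minus WT less the median gene, for the 5 loci before and the 5 after Cs3g10440, Cs1g22210 and Cs6g20050 (stars, at place 0). Circles are genes tested, with bars of 1 standard error from limma, in blue where the MT libraries lie wholly above the WT libraries. Crosses at the bottom mark loci below the minimum mean RPKM, with no value.

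Likeness to other genes was taken as the root mean square difference between log2(RPKM + 0.5) profiles centred on their own mean over the 6 libraries. Small values mean that 2 genes differ alike between all libraries, and the median over all genes tested was 0.67 for Cs3g10440, 0.71 for Cs1g22210 and 0.68 for Cs6g20050. The gene most like Cs3g10440 was Cs7g28170, a match to 3-ketoacyl-CoA synthase 21, an enzyme class that elongates fatty acids, at 0.09. It had 120, 131 and 85.2 RPKM in MT1, MT2 and MT3, against 45.8, 47.0 and 39.6 RPKM in WT1, WT2 and WT3. Next came Cs8g07830, which has no name, at 0.11 and Cs7g24640, a receptor-like kinase match, at 0.12. The same Cs7g28170 was nearest to Cs1g22210, at 0.14, followed by Cs3g10440 at 0.14 and orange1.1t03175, a match to DRT100, at 0.14. Cs6g20050 had other nearest genes, Cs1g17250 at 0.07, Cs5g13555 at 0.08 and Cs5g19430 at 0.09, none of them named, and each was highest in MT2. For the P450 genes this measure also depends on the 0.5 added to RPKM. The difference between MT and WT enters the measure, and the 3 genes were chosen by it. Nothing is therefore read from their likeness to one another.

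Markers of cells in the rind could be taken only from genes listed for change in these libraries. That they differed between the genotypes was thus set beforehand, and nothing is read from it. From the list of the study, 4 genes of the epidermis and of the stomatal lineage were taken, HDG5 (Cs3g09300), MUTE (Cs9g06130), EPFL9 (Cs7g16890) and the potassium channel KAT3 (Cs4g20090). Their summed RPKM was 23.6 to 36.2 in MT libraries and 36.6 to 43.1 in WT libraries. HDG5 and EPFL9 were higher in all MT libraries and MUTE and KAT3 lower, with EPFL9 at 0 in all WT libraries. The DCR matches, taken for cutin of the epidermis, summed to 195 to 1950 RPKM in MT libraries and 2412 to 3167 RPKM in WT libraries. The (R)-limonene synthase match Cs5g22980, used as the marker of flavedo oil glands, had 0.0494 to 0.280 RPKM in MT and 1.68 to 4.03 RPKM in WT, so it stood at or below 4.03 RPKM in every library. In bulk pericarp, fewer cells of a type and less RNA per cell cannot be told apart, and the part of these markers in the levels of the 3 genes was not tested.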

How the data were processed

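Pericarp RNA of 3 MT and 3 WT libraries was sequenced as 100 bp single-end reads. The authors aligned clean reads to the sweet orange genome with TopHat (Bowtie2 2.1.0 in the submitters' processing notes) and deposited RPKM values, computed from uniquely mapped reads, with no scaling between libraries stated. The read counter and the gene lengths are not given in the sources used here. All 6 value columns were used. Whole reads were recovered, within 0.005 reads, as the smallest counts that fit the RPKM steps, and a count divisible by a factor of the length can be too low. Their sums were 99.7% of the scale of each library.

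For the comparison, 0.5 was added to RPKM, log2 was taken, and limma 3.58.1 in R 4.3.3 was run on genes averaging 0.3 RPKM or more (eBayes with an intensity trend, no block, Benjamini-Hochberg adjustment over all genes tested). A count test was not the main one, since the table holds RPKM. The authors used DESeq on counts. Counting intervals are exact Poisson or Clopper-Pearson intervals at 95.0% and do not cover spread between fruits. The limma fit and the read recovery were tested on simulated data.

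The 3 genes and the gene lists were chosen with earlier results of these data known. Named were the 3 genes, listed genes of the BAHD, P450 and phenylpropanoid families, marker genes, locus neighbours whose genotypes did not overlap, and the 3 most alike genes for each. Other settings tried were 0.1 or 1 added to RPKM, a minimum mean of 3 RPKM or none, median ratio, equal sums or quantile rescaling, no trend, a replicate block, limma voom on recovered reads, and leaving out each library. The rest was done in Python 3.11.15 (scipy 1.17.1, pandas 2.3.3, numpy 2.4.6, matplotlib 3.10.9).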

Additional observations from a re-analysis of the deposited data

How the results depend on the processing

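The log2 differences of Cs3g10440, Cs1g22210 and Cs6g20050 kept their positive sign under every alternative that gave a value. Cs3g10440 moved by less than its spread between replicates in each. With 0.1 added to RPKM, Cs1g22210 gave 2.72 and Cs6g20050 2.66. In limma voom they gave 3.79 and 3.71, and with 1 added Cs1g22210 gave 0.75. At a mean RPKM of at least 3 neither P450 gene was tested, and Cs6g20050 was not tested without MT2. No listed, neighbouring or alike gene that is named changed its sign.

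The number of genes called by limma, 6 in the test as reported, was 10 with a pseudocount of 0.1, 11 with median ratio rescaling, 12 with quantile normalization, 15 without the trend and 0 in limma voom, where 3580 genes had an unadjusted p under 0.05. Leaving out a library gave 0 to 863 calls, with 863 without MT3, 11 without MT2 and 0 without WT1, WT2 or WT3. With a replicate block it was 122. Of the libraries sharing a number, MT2 with WT2 (0.19) and MT3 with WT3 (0.16) deviated together by more than 0.1, and MT1 with WT1 did not (-0.05). MT3 deviated as much with WT1 (0.16), which has another number, so these values do not show that the numbers pair the libraries. The neighbours without overlap were 2 as reported (2 above, 0 below), beside 23.3% above and 5.36% below of all genes tested. With median ratio rescaling they were 4 (2 above, 2 below), beside 13.3% and 13.0%. They were 5 with equal sums or quantile normalization, where the share of all genes was not computed. Leaving out each library gave 2 to 8, with 7 without MT3 beside 46.0% and 8 without WT2 beside 41.4%. Nothing is read from how these counts move. Depth limits the ratios of the P450 genes, with 2 and 1 reads in WT.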

Other observations

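The list of the study names 10 genes of phenylpropanoid and flavonoid metabolism outside the BAHD and P450 families. They were picked for change in these libraries, so their values are a description, and pathway members off the list were not counted. Without rescaling, MT lay wholly below WT for 8 of the 10 and wholly above for 2, beside 5.36% and 23.3% of all genes tested. After median ratio rescaling those shares of all genes tested were 13.0% and 13.3%. Nothing is read from this count. Their median log2 difference was -1.29, beside 0 for all genes tested, from which it was subtracted. Of the isoflavone reductase-like genes, Cs2g16260 had 532, 378 and 375 RPKM in MT1, MT2 and MT3, against 2347, 3265 and 2133 RPKM in WT1, WT2 and WT3. Cs2g16220 had 67.7 ± 19.7 RPKM in MT and 129 ± 18.1 RPKM in WT, and Cs2g16240 had 102 ± 52.9 RPKM in MT and 191 ± 8.05 RPKM in WT (SD, n = 3 each). Cs3g25010 had 0.697, 0.855 and 4.53 RPKM in MT1, MT2 and MT3, against 15.3, 18.8 and 29.7 RPKM in WT1, WT2 and WT3.

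Laccase-7 (Cs6g07400), of a family that oxidises monolignols, had 2.65, 1.58 and 2.18 RPKM in MT1, MT2 and MT3, against 10.6, 45.7 and 35.8 RPKM in WT1, WT2 and WT3. A prenyltransferase match for naringenin, Cs7g06090, had 0.578 ± 0.276 RPKM in MT and 2.78 ± 0.588 RPKM in WT (SD, n = 3 each), the MT value from 20 reads. The glycinol prenyltransferase match Cs7g06040 and the DR206 match orange1.1t02077 were also wholly below WT in MT. Both glycosyltransferase matches lay above, with 5.91 ± 1.56 RPKM of Cs6g03350 in MT and 1.75 ± 0.760 RPKM in WT, and 47.4 ± 13.6 RPKM of Cs7g03170 in MT and 18.6 ± 3.24 RPKM in WT (SD, n = 3 each).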
